A study of Spirodela polyrhiza with 13 samples.

Results

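Expression in the middle of frond development, at stages 3 and 4, was set against expression at both end stages, 2 and 6, in the greater duckweed Spirodela polyrhiza. The comparison used 11 of the series' 13 libraries, namely 6 from the middle stages (3 of stage 3 and 3 of stage 4) and 5 from the end stages (3 of stage 2 and 2 of stage 6). The 2 libraries of stage 5 did not enter it and are given beside it. All libraries were made from RNA of frond tissue of wild-type plants kept in SH medium under long days, and the labels list no treatment. They number the stages, give no age in days and leave out whether the replicates were different plants, cultures or pools. A p-value here is therefore set against differences between libraries that could be technical. In such bulk RNA, a change in the mix of cells cannot be told apart from a change of expression within them. Of 19623 gene IDs, 15558 reached at least 1 FPKM (reads on a gene scaled to its length and to the depth of the library) in at least 2 of the 11 libraries and were tested. At the edge of this limit, 278 genes passed with exactly 2 such libraries, at a median of 0.670 FPKM over the 11 libraries, and 284 genes missed it with 1, at a median of 0.389.

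A duckweed frond is a reduced, leaf-like floating shoot that buds daughter fronds from pockets at its base. As it expands it fills with aerenchyma, a tissue of gas spaces that gives buoyancy and carries gases, and that forms in plants by cells parting from one another or by cells dying. Ethylene promotes aerenchyma in cereal roots, and other hormones modify the response in a way that depends on the tissue. The series addresses how plant hormones and aerenchyma pattern are connected over frond development. Setting the middle against both ends asks which genes differ in passing, rather than from the first stage to the last. Genes are given by the bare IDs of the deposited table. Without names or products, pathway genes and tissue markers could not be looked up, the frond label could not be checked against markers, and no role is given to any gene.

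Libraries held between 7708200 and 10910370 reads on genes over the series. On the log2(FPKM + 1) scale, the first principal component of the 11 libraries held 70% of the variance and ran from stage 2 (-52.7 to -48.9) to stage 6 (97.6 and 107.1). The second held 12% and separated the middle libraries from both ends. Stage 4 lay between 21.4 and 39.2 on it and stage 3 between 0.518 and 6.50, while stage 2 lay between -25.0 and -20.5 and stage 6 at -17.3 and -15.5. The 100 genes with most reads held 11.1% to 13.3% of reads in the 6 middle libraries, 11.4% to 11.6% at stage 2 and 17.9% and 19.1% at stage 6. Stage 2 thus lay within the range of the middle and stage 6 above it. The means of 12.0% ± 0.749 (SD, n = 6) and 14.3% ± 3.81 (SD, n = 5) differed by less than an exact two-sided permutation test could call (p = 0.303, adjusted over 4 library measures 0.606). The part of this stage 6 feature in the results was not tested. Median ratio factors, which scale each library to a typical gene, were 0.835 and 0.840 at stage 6 and 0.982 to 1.07 in the other 9 libraries. Counts of higher and lower genes are therefore given as deposited and with this scaling.

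**Figure D1:**
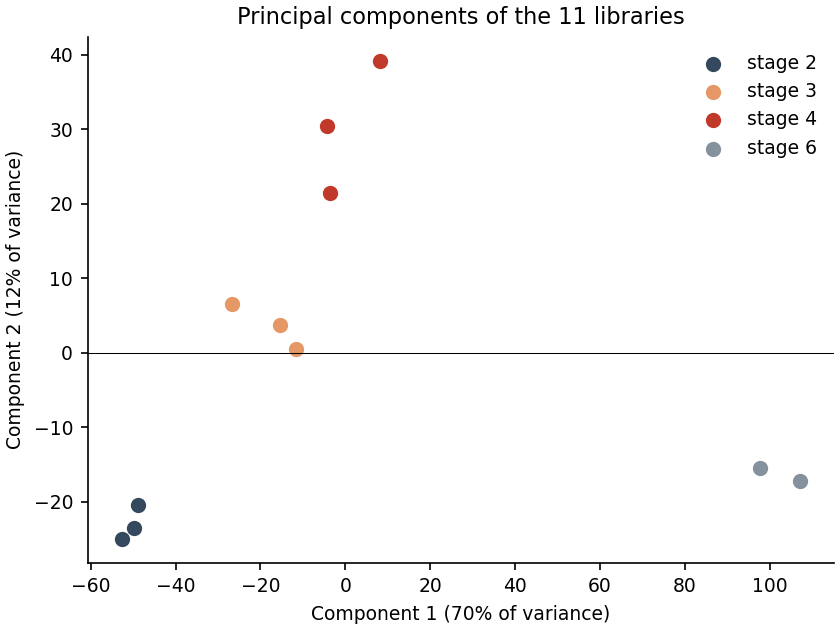
Scores of the 11 libraries on the first (x axis) and second (y axis) principal components of log2(FPKM + 1), without units, 1 point per library, coloured by stage. The 6 libraries of stages 3 and 4 have scores above 0 on the second component, and the 5 libraries of stages 2 and 6 have scores below 0.

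Against the equal mean of stages 2 and 6, 5989 genes (38.5% of those tested) differed at the middle stages at an adjusted p under 0.05 (limma). As deposited, 4252 were higher (27.3%) and 1737 were lower (11.2%), so 71% of the called genes were higher. With median ratio scaling the balance turned, to 1950 higher and 2830 lower, 40.8% higher, and quantile normalization gave 3094 and 2178, 58.7% higher. The median difference of all tested genes was 0.12 (log2) as deposited and -0.01 with median ratio scaling. All 1737 lower genes were still called lower with median ratio scaling, joined by 1093 others, while 1950 of the 4252 higher genes kept their call and none of the 5989 was called the opposite way.

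Differences were mostly small, and most of the large ones were lower levels at the middle. The median size was 0.41 (log2) among the higher and 0.60 among the lower genes. On the log2(FPKM + 1) scale, 777 genes were at least 1.5-fold higher and 890 at least 1.5-fold lower. At least 2-fold, 68 genes were higher (0.437% of those tested) and 334 lower (2.15%), and at least 4-fold, 1 was higher and 37 lower. The lower counts include genes that passed the limit for testing only through the stage 6 libraries, where they were high. Of all genes tested, 188 were at 1 FPKM or more in both stage 6 libraries and in no other library of the comparison. The stage 5 libraries were left out of this count. How many of these were called was not counted. All 6 middle libraries lay above all 5 end libraries for 354 of the genes called higher and below them for 90 of those called lower, against 363 (2.33%) and 95 (0.611%) of all genes tested.

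The equal mean of 2 distant ends can differ from the middle without the middle lying beyond either of them, so each end was also tested alone. Against stage 2, 5544 genes were called (35.6%), of which 2677 genes were higher (17.2%) and 2867 lower (18.4%) at the middle. Against stage 6, 10686 were called (68.7%), 7117 as higher (45.7%) and 3569 as lower (22.9%). With median ratio scaling 4787 of 9903 called against stage 6 were higher. The difference from stage 6 was larger in size than that from stage 2 for 87.4% of the genes called higher and for 93.4% of those called lower than the mean of the ends. Without stage 2 replicate 3, the number called against stage 2 was 3472.

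Genes called on both sides in the same direction were few. Of the 5989 called genes, 486 (8.11%) were called beyond both ends. Of these, 381 were higher than stage 2 and higher than stage 6 (2.45% of genes tested), here called peak genes, and 105 were lower than both (0.675%), here called dip genes. Under median ratio scaling the numbers were 188 and 194, or 7.99% of the called genes. Of the genes called as deposited, 177 of the 381 peak genes and 93 of the 105 dip genes kept both calls. Quantile normalization gave 299 peak and 168 dip genes. These counts also fell when any single library of stage 2 was left out. Dependence on that library cannot be told apart here from having fewer libraries at that stage. Peak genes numbered 251, 281 and 200 and dip genes 62, 52 and 56 without its replicates 1, 2 and 3.

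**Figure D2:**
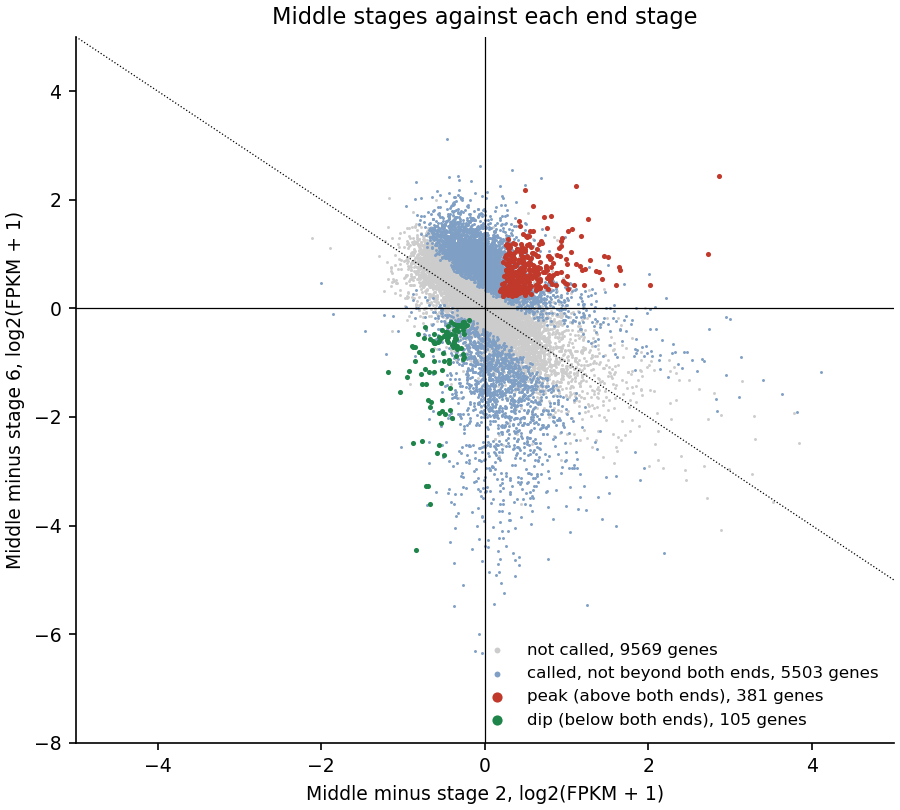
Difference of the mean of stages 3 and 4 from stage 2 (x axis) and from stage 6 (y axis), in log2(FPKM + 1), 1 point per tested gene, with the dotted line where the middle equals the mean of both ends. The 381 peak genes (red) and 105 dip genes (green) occupy the upper right and lower left, and most called genes (blue) lie along the y axis, beyond stage 6 alone.

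Most genes called higher at the middle were genes that stood lower at stage 6. For 2649 of 4252 (62.3%) the middle was above stage 6 and no difference from stage 2 was called. Their median levels relative to stage 2 were 0.02 and -0.06 (log2) at stages 3 and 4, -0.67 at stage 5 and -0.88 at stage 6. Another 775 (18.2%) were below stage 2 and above stage 6 at the middle, with medians of -0.30, -0.49, -1.13 and -1.54 at stages 3 to 6. For 372 genes (8.75%) the middle was above stage 2 alone, and for 49 it was above stage 2 and below stage 6. With median ratio scaling 1254 of the 2649, 267 of the 775 and 95 of the 372 were still called higher than the mean of the ends.

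The genes called lower at the middle were in the main genes that stood higher at stage 6. For 1185 of 1737 (68.2%) the middle was below stage 6 and no difference from stage 2 was called. Their medians relative to stage 2 were 0.08, 0.02, 1.0 and 1.5 (log2) at stages 3, 4, 5 and 6. In 352 (20.3%) the middle was above stage 2 and below stage 6, with medians of 0.49, 0.70, 1.74 and 2.29. For 82 genes (4.72%) the middle was below stage 2 alone. The 1185 genes had a median of 15.2 FPKM over the 11 libraries, the 352 genes 29.4 and the 82 genes 52.1, against 26.2 for all genes tested. The 1185 include genes that passed the limit for testing only through the stage 6 libraries.

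**Figure D3:**
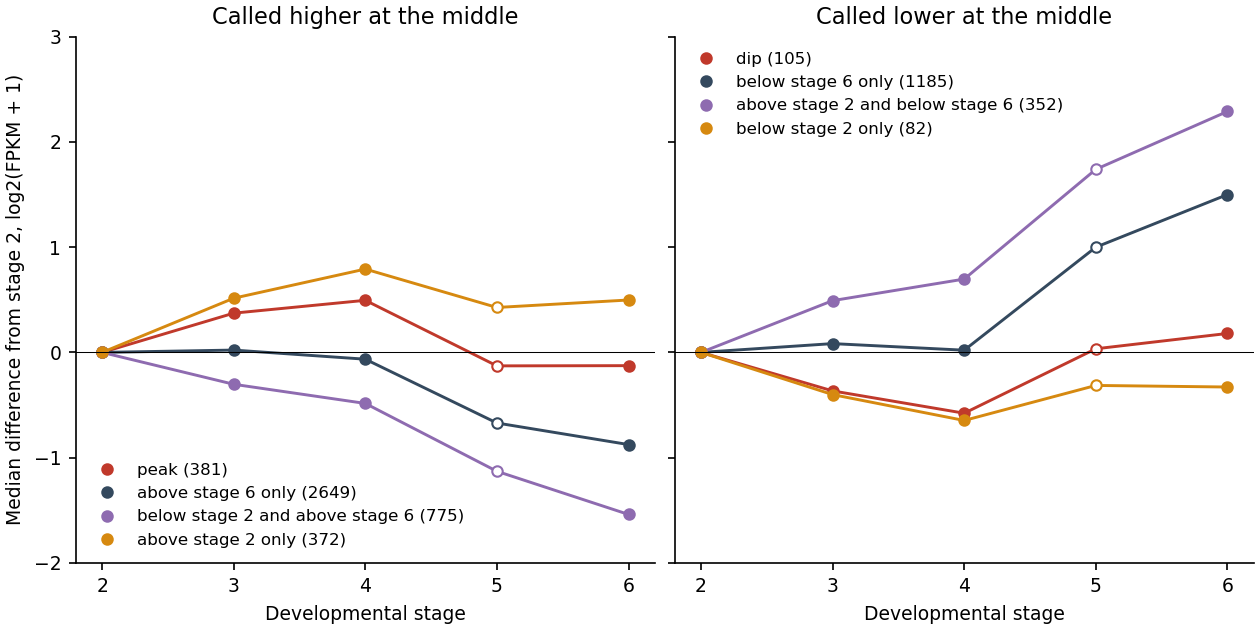
Median difference from stage 2 in log2(FPKM + 1) (y axis) by developmental stage (x axis) for the main classes of genes called higher (left) and lower (right) at stages 3 and 4, with the number of genes in brackets. Filled points are the stages compared and open points stage 5; the largest classes (dark blue) stay near 0 through stage 4 and reach -0.88 and 1.5 at stage 6.

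The genes with the largest differences of this kind were near 0 until stage 4 and high at stage 6. Spipo0G0190900 (coding length 672 bases) was at 0.333, 0.464 and 0.682 FPKM in the stage 2 libraries, at 0.163, 0.161 and 0.640 at stage 3, at 0.474, 0 and 0.978 at stage 4, and at 117 and 98.3 at stage 6. Stages 2, 3 and 4 held 10, 6 and 10 reads and overlapped, and stage 6 held 1195. It reached 1 FPKM within the comparison in the 2 stage 6 libraries alone and so passed the limit for testing only through them. Its difference from the mean of the ends, -3.22 (log2), and from stage 2, -0.12, are therefore given without a test. The gene was at 79.0 and 107 FPKM in the stage 5 libraries. Spipo9G0025900 (417 bases) had the same shape, with means of 0.549 ± 0.308 FPKM (SD, 3 libraries) at stage 2 and 119 ± 4.23 (2 libraries) at stage 6 against 0.520 ± 0.257 and 0.481 ± 0.210 (n = 3 each) at stages 3 and 4. It too passed the limit only through the stage 6 libraries. Its difference was -3.19 (log2), and against stage 2 alone it was -0.04, both given without a test.

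Among the genes higher at the middle but not beyond both ends, the 2 with the largest difference had different profiles. Spipo1G0061500 (297 bases) was at 12.1, 7.00 and 5.86 FPKM at stage 2, at 24.0, 13.1 and 2.90 at stage 3, at 17.9, 13.8 and 22.8 at stage 4 and at 0.872 and 3.03 at stage 6. One stage 3 library lay below all stage 2 libraries, and the middle and stage 2 overlapped. Its difference from the mean of the ends was 1.54 (log2, SE 0.41, adjusted p = 0.0122, limma), from stage 6 2.40 (adjusted p = 0.0021, limma) and from stage 2 0.69 (adjusted p = 0.273, limma). Without stage 6 replicate 1 it was 1.27 and no longer called (adjusted p = 0.0663, limma), and with stage 5 in the middle it was 0.93 (adjusted p = 0.145, limma).

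Spipo22G0026000 (378 bases) was lowest at stage 2 and highest at stage 6. Its means were 0.850 ± 0.620 FPKM at stage 2 (9 reads over 3 libraries), 17.0 ± 7.57 at stage 3, 54.7 ± 6.23 at stage 4 (SD, 3 libraries each), and stage 6 reached 69.2 ± 10.2 (2 libraries). The stage 5 libraries, at 41.9 and 30.2 FPKM, were below all libraries of stages 4 and 6. The middle was 4.11 (log2) above stage 2 (adjusted p = 2.64e-06, limma) and 1.18 below stage 6 (difference -1.18, adjusted p = 0.00272, limma). Against the mean of the ends it was called higher, by 1.47 (SE 0.21, adjusted p = 0.000448, limma).

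The 381 peak genes were of moderate level and moderate change. Their median level over the 11 libraries was 41.4 FPKM, with 25 genes under 5 FPKM and 69 over 100. The median was 36.8 for all genes called higher and 26.2 for all genes tested. Their median coding length was 1311 bases, against 1195.5 for all genes called higher and 1020 for all genes tested. The middle exceeded the nearer end by a median of 0.40 (log2), by at least 1.5-fold in 71 genes and by at least 2-fold in 7. Stage 2 was the nearer end in 274 of them. All 6 middle libraries lay above all 5 end libraries in 253 of the 381, against 363 (2.33%) of all genes tested. The same libraries chose the peak genes, so this is no separate support.

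Of the peak genes, Spipo9G0028100 (324 bases) had the largest difference. It was at 0.346, 1.93 and 0.283 FPKM in the stage 2 libraries, at 5.75, 4.01 and 3.65 at stage 3, at 14.4, 43.6 and 34.2 at stage 4, and at 1.60 and 1.04 at stage 6. Every middle library was above every end library, which the choice of this gene required. It was also chosen by the size of its difference, so neither is separate support. Every stage 4 library was above every stage 3 library. The middle mean of 17.6 FPKM was 20.7-fold that of stage 2 and 13.3-fold that of stage 6, on 8 reads at stage 2, 40 at stage 3, 293 at stage 4 and 7 at stage 6. On the log2(FPKM + 1) scale the difference was 2.65 (SE 0.29, adjusted p = 9.47e-05, limma).

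Spipo1G0003700 (831 bases) was at 12.9, 21.1 and 13.8 FPKM at stage 2, at 35.7, 24.1 and 21.6 at stage 3, at 38.6, 72.1 and 34.2 at stage 4 and at 5.92 and 7.18 at stage 6. The groups did not overlap, as the choice of this gene required, though the lowest stage 3 library was close to the highest of stage 2. The difference from the mean of the ends was 1.68 (log2, SE 0.21, adjusted p = 0.000183, limma), made of 1.11 against stage 2 (adjusted p = 0.00464, limma) and 2.253 against stage 6 (adjusted p = 2.42e-05, limma). The 8 peak genes with the largest difference among those without overlap and with at least 5 FPKM at the middle had differences from 1.12 to 2.65. All 8 had their higher mean at stage 4, and all 8 kept both calls with median ratio scaling.

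The 105 dip genes had a median level of 37.8 FPKM and a median coding length of 774 bases. The median length was 900 bases for all genes called lower and 1020 for all genes tested. The middle lay below the nearer end by a median of 0.46 (log2), by at least 1.5-fold in 30 genes and by at least 2-fold in 2. Stage 2 was the nearer end in 81 of the 105. All middle libraries were below all end libraries in 63, against 95 (0.611%) of all genes tested. Here too the same libraries chose the genes.

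Spipo11G0058000 (846 bases) had the largest fall of the dip genes without overlap and with at least 5 FPKM at both ends. It was at 41.4, 31.1 and 29.4 FPKM at stage 2, at 27.8, 22.1 and 26.7 at stage 3, at 17.6, 17.5 and 12.8 at stage 4 and at 201 and 204 at stage 6. The middle was below both ends in every library, but the ends were far apart: stage 2 was 1.64-fold and stage 6 9.78-fold the middle mean of 20.7 FPKM. The difference from the mean of the ends was -2.0 (log2, SE 0.12, adjusted p = 1.98e-06, limma), and from stage 2 alone it was -0.72 (adjusted p = 0.00236, limma).

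Spipo13G0005200 (834 bases) was at 6.18, 5.48 and 5.39 FPKM at stage 2, at 2.76, 1.95 and 3.61 at stage 3, at 4.71, 2.46 and 3.94 at stage 4 and at 40.2 and 37.4 at stage 6. Its highest middle library was below its lowest stage 2 library, as the choice of this gene required, and stage 6 was far above both. The difference from the mean of the ends was -1.98 (log2, SE 0.16, adjusted p = 1.33e-05, limma) and from stage 2 -0.69 (adjusted p = 0.012, limma). The 8 dip genes chosen in the same way had differences from -2.0 to -1.21, and all 8 had a larger difference from stage 6 and a higher mean at stage 6 than at stage 2. Both calls were kept by 6 of the 8 with median ratio scaling.

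**Figure D4:**
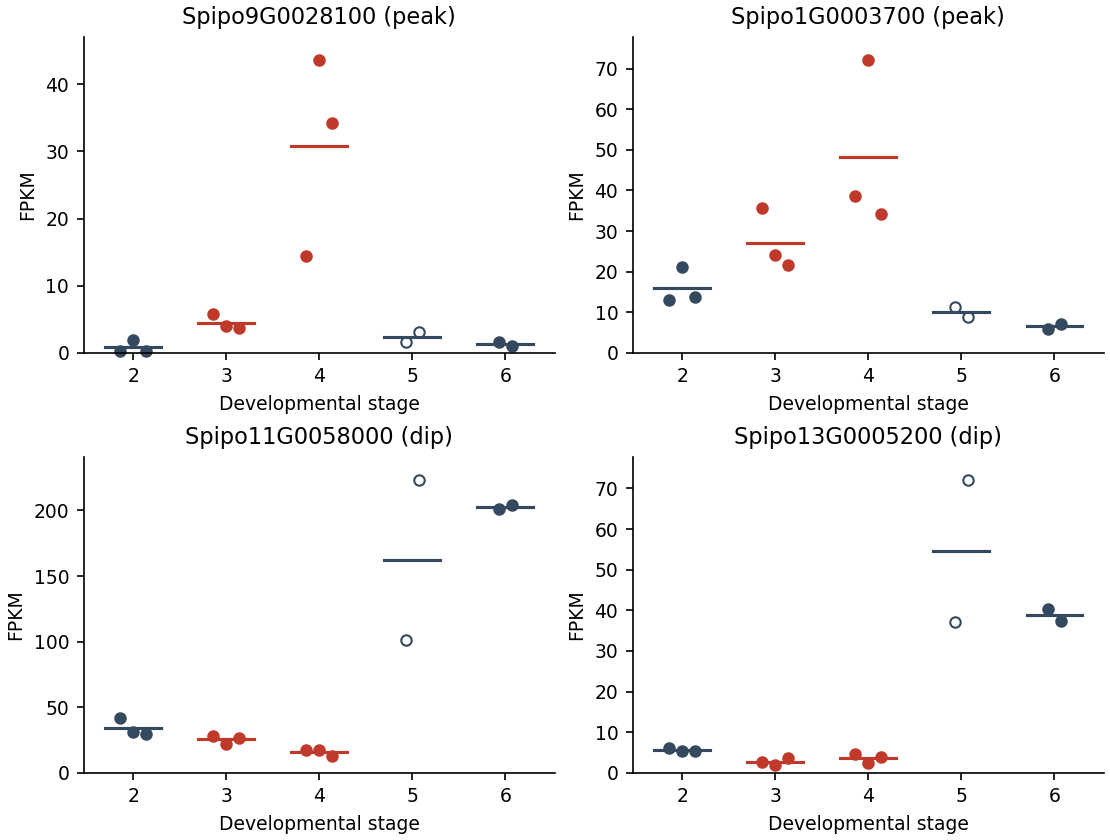
FPKM (y axis) by developmental stage (x axis) for the 2 peak genes and 2 dip genes with the largest differences among those without overlap of the groups, 1 point per library, with a bar at the stage mean; red marks stages 3 and 4 and open points stage 5, which did not enter the comparison. Spipo9G0028100 and Spipo1G0003700 are highest at stage 4, with middle means of 17.6 and 37.7 FPKM, and Spipo11G0058000 and Spipo13G0005200 are lowest at the middle, with stage 6 means of 203 and 38.8 FPKM.

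Within the middle, the extreme lay more often at stage 4. The mean was higher at stage 4 than at stage 3 for 301 of the 381 peak genes, and lower at stage 4 for 91 of the 105 dip genes. The share of all genes going each way was not counted. The median difference of stage 4 from stage 3 was 0.13 (log2) for peak genes and -0.22 for dip genes. For all genes tested it was -0.07, so dip genes in part shared the general direction. In most peak and dip genes the step from stage 3 to stage 4 was not called. It was called as a rise for 12 peak genes and as a fall for none, and as a fall for 4 dip genes and as a rise for none, against 1.47% (rise), 0.752% (fall) and 2.22% (either) of all genes tested. These few calls changed in number when single libraries were left out. With 1 library left out, steps called in either direction were counted among the peak or dip genes of that same fit. Among its peak genes they were 3, 4, 4 and 2 without stage 3 replicate 2 or 3 or stage 4 replicate 2 or 3. Without stage 4 replicate 1 they were 20. Among its dip genes they were between 0 and 16. They were 16 without stage 4 replicate 1 and 0 without stage 2 replicate 2, stage 3 replicate 2, stage 4 replicate 2 or stage 4 replicate 3. Without stage 2 replicate 1, stage 3 replicate 3 or stage 6 replicate 2 they were 2. Both stage means lay above both end means in 379 of the 381 peak genes, and below both in 104 of the 105 dip genes.

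Of the peak genes with a called step, Spipo9G0028100 rose most, by 2.42 (log2, SE 0.39, adjusted p = 0.0122, limma), and Spipo3G0017900 (534 bases) was next. Spipo3G0017900 was at 1.89, 0.973 and 1.37 FPKM at stage 2, 3.49, 5.47 and 2.01 at stage 3, 9.94, 9.49 and 15.8 at stage 4 and 3.88 and 2.95 at stage 6. Stage 3 overlapped stage 6, and the stage 4 libraries stood above all others. Its rise from stage 3 to stage 4 was 1.49 (log2, SE 0.28, adjusted p = 0.0215, limma). With median ratio scaling its difference from stage 6 was no longer called (adjusted p = 0.131, limma).

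Of the dip genes with a called step, Spipo3G0103900 (291 bases) and Spipo1G0085300 (1632 bases) fell most. Spipo3G0103900 was at 72.4, 71.8 and 52.3 FPKM at stage 2, 50.5, 77.7 and 57.7 at stage 3, 34.7, 21.1 and 25.2 at stage 4 and 537 and 461 at stage 6. Spipo1G0085300 was at 73.4, 68.0 and 51.4 FPKM at stage 2, 51.7, 85.6 and 61.8 at stage 3, 35.5, 28.0 and 26.5 at stage 4 and 89.2 and 108 at stage 6. In both, stages 2 and 3 overlapped and stage 4 was below all other libraries, so the level below both ends was that of stage 4. From stage 3 to stage 4 the first fell by 1.17 (log2, SE 0.20, adjusted p = 0.0143, limma) and the second fell by 1.1 (SE 0.19, adjusted p = 0.0155, limma). All 4 of these steps lost the call (adjusted p from 0.0505 to 0.0864, limma) when single libraries of stages 3 or 4 were left out: without stage 4 replicate 3 in all 4, without stage 4 replicate 2 in all but Spipo9G0028100, without stage 3 replicate 3 in Spipo3G0017900, and without stage 3 replicate 2 in the other 3.

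At stage 5, which took no part in choosing them, most peak and dip genes had moved off their middle level. In a fit of all 13 libraries stage 5 was below the middle for 285 of the 381 peak genes (74.8%), where 37.2% of all genes tested were, and above it for none. It was above the middle for 70 of the 105 dip genes (66.7%), where 17.1% of all genes tested were, and below it for 1. The middle libraries that chose the genes also enter these contrasts. The move was not particular to these genes. The median difference of stage 5 from the middle was -0.58 (log2) for peak genes. Among the other genes called higher it was -0.65 for those above stage 6 alone and -0.71 for those below stage 2 and above stage 6. For those above stage 2 alone it was -0.23. For dip genes it was 0.48, against 0.93 for genes called lower and below stage 6 alone, and 0.19 for those below stage 2 alone. With median ratio scaling 199 of the 381 peak genes were below, where 3475 of 15558 genes were, and 87 of the 105 dip genes were above, where 3931 were. The mean at stage 5 was above both ends for 126 peak genes, between them for 115 and below both for 140. Among the dip genes it was above both ends for 31, between them for 28 and below both for 46.

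The stage 5 levels of the named genes differed in how far they had turned. Spipo9G0028100 was at 1.60 and 3.17 FPKM at stage 5, 1.92 (log2) under the middle (difference -1.92, adjusted p = 0.00111, limma). Spipo1G0003700 was at 11.2 and 8.92 FPKM, below all its libraries of stages 2 to 4 and above both of stage 6. Spipo11G0058000 was at 101.2 and 223.1 FPKM and Spipo13G0005200 at 37.2 and 72.0. In both, 1 stage 5 library lay below both stage 6 libraries and 1 above them, and all lay far above the middle. When stage 5 was counted with the middle, 1335 genes were called, 892 higher and 443 lower. There were then 126 peak genes, 105 of them among the 381, and 51 dip genes, 40 of them among the 105.

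Stages 3 and 4 lie nearer to stage 2 than to stage 6 in number. A gene that changed by equal amounts at each numbered stage would therefore differ from the equal mean of the ends. Weighting stages 2 and 6 by 5 to 3 sets the middle against the point on a straight line between the ends. This called 3685 genes, 2611 higher and 1074 lower, so that 70.9% were higher. Combined with median ratio scaling, an alternative added after seeing the data, it called 2956, 1250 higher and 1706 lower. Stage numbers are ranks and not times, so equal steps are a reference only.

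**Figure D5:**
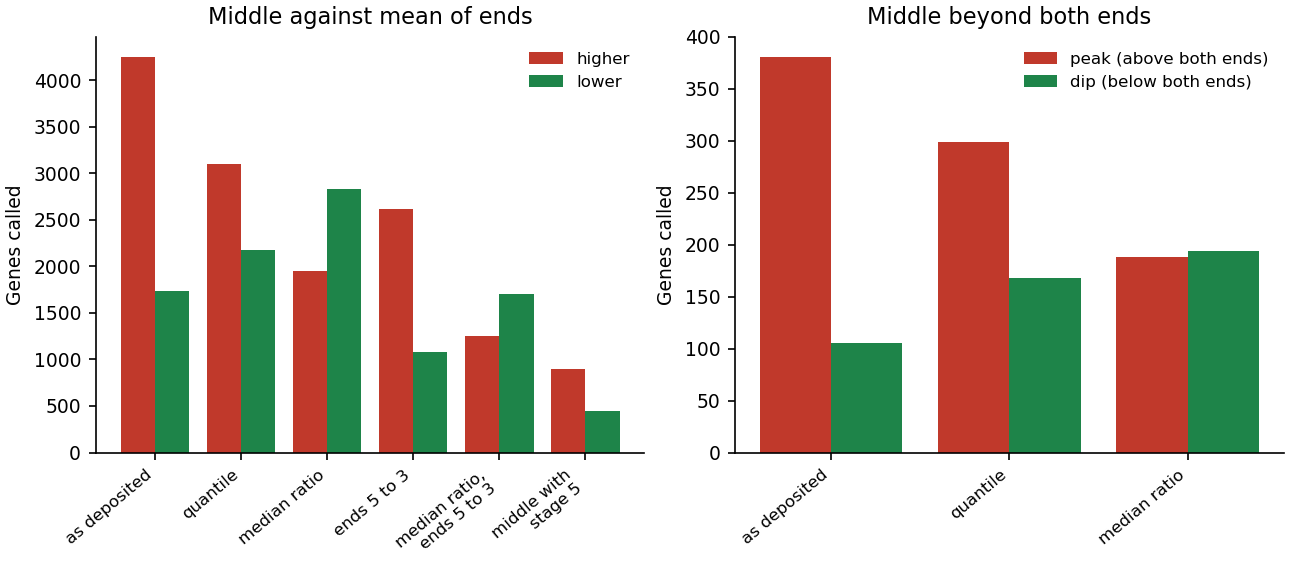
Number of genes called (y axis, adjusted p under 0.05, limma) under different scalings and end weights (x axis), as bars from 0; left, middle against the mean of the ends (red higher, green lower); right, genes beyond both ends. Higher genes outnumber lower ones as deposited (4252 and 1737) and lower ones outnumber higher ones with median ratio scaling (1950 and 2830), while peak and dip genes are 381 and 105 as deposited and 188 and 194 with that scaling.

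The most abundant genes called at the middle had small differences. In the 4 given here stage 5, outside the comparison, was close to stage 6, and none of the 4 was called when stage 5 was counted with the middle (adjusted p from 0.261 to 0.87, limma). Of the genes called lower, Spipo23G0000600 (159 bases) had the highest level, with stage means of 11841 ± 1154, 11053 ± 1970 and 11575 ± 731 FPKM (SD, 3 libraries each) at stages 2, 3 and 4, and of 19468 ± 2587 and 18485 ± 1757 (2 libraries each) at stages 5 and 6. Its difference of -0.39 (log2, SE 0.11, adjusted p = 0.0142, limma) lost the call when the ends were weighted 5 to 3 (-0.31, adjusted p = 0.0537, limma), with quantile normalization (-0.13, adjusted p = 0.246, limma) and without the filter on low values (adjusted p = 0.0529, limma). Spipo23G0000500 (171 bases) was next, with 4314 ± 447, 3979 ± 603 and 4100 ± 523 FPKM at stages 2, 3 and 4 (SD, 3 libraries each), and stages 5 and 6 were at 6689 ± 359 and 6890 ± 794 (2 libraries each). Its difference was -0.44 (SE 0.11, adjusted p = 0.0075, limma), and 0.02 with quantile normalization (adjusted p = 0.862, limma).

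Of the genes called higher, Spipo2G0105900 (297 bases) had the highest level. It was at 4569 ± 439, 4354 ± 966 and 5505 ± 332 FPKM at stages 2, 3 and 4 (SD, 3 libraries each), and stages 5 and 6 were at 2764 ± 687 and 2744 ± 531 (2 libraries each), a difference of 0.46 (log2, SE 0.12, adjusted p = 0.00901, limma). Spipo1G0064300 (522 bases) followed, at 2568 ± 76.8, 1936 ± 269 and 2097 ± 103 FPKM at stages 2, 3 and 4 (SD, 3 libraries each) and 1200 ± 164 and 1073 ± 188 at stages 5 and 6 (2 libraries each). It was below stage 2 and above stage 6 at the middle, and its difference of 0.28 (adjusted p = 0.0258, limma) was 0.14 with median ratio scaling and not called (adjusted p = 0.241, limma). The call was also lost with the ends weighted 5 to 3 (0.12, adjusted p = 0.341, limma) and with libraries weighted equally (0.15, adjusted p = 0.216, limma). It was lost again without stage 2 replicate 3 (0.27), stage 3 replicate 1 (0.23), stage 4 replicate 1 (0.26) or stage 6 replicate 1 (0.19), with adjusted p from 0.0505 to 0.115 (limma).

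Genes at 1 FPKM or more in every library of both middle stages and in no end library were almost absent. In 1 gene all 6 middle libraries were at 1 FPKM or more and all 5 end libraries below, and in 1 gene the reverse held. The first, Spipo1G0124200, was between 1.03 and 1.77 FPKM at the middle and between 0.428 and 0.920 at the ends. The second, Spipo1G0113800, was between 0.408 and 0.872 FPKM at the middle, at 2.23 to 5.91 at stage 2 and at 1.04 and 1.39 at stage 6. Both are named after their values were seen. For single end stages, 188 genes were at 1 FPKM or more in both stage 6 libraries and in no other library of the comparison. The like count for all 3 stage 2 libraries was 5. Stage 5 was left out of all these counts, so such genes can be high there. These counts are not like for like with that of the middle, which had to pass in all 6 libraries of both its stages. Genes at 1 FPKM or more in only 1 of the middle stages were not counted. The middle was at 1 FPKM or more together with stage 2 and not stage 6 in 81 genes, and with stage 6 and not stage 2 in 48.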

How the data were processed

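The authors deposited 1 table of FPKM values, 1 column per library, which were used as deposited. The submitters' processing notes name HTSeq 0.11.3 and HISAT2 2.2.1, with Picard 2.25.5, Trimmomatic 0.39 and CASAVA 1.8.2. The genome build, the annotation and the strand setting of the counting were not given in the sources used here, so overlapping genes, antisense partners and near-identical copies may share reads.

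Whole reads were recovered from the FPKM steps (100% of 17445 genes within 0.001 reads, implied lengths being multiples of 3) and served for depth, coding length and an alternative test. Contrasts were tested with limma 3.58.1 in R 4.3.3, on log2(FPKM + 1), with a mean per stage, 7 residual degrees of freedom, a mean-variance trend and Benjamini-Hochberg adjustment over 15558 genes. Stage 5 was read from a fit of 13 libraries with 8 residual degrees of freedom. Adding a pseudocount of 1 understates changes of low genes. Alternatives covered pseudocount, filter, scaling, weights, trend, libraries in the fit, replicate block, definitions of middle and ends, and voom on the recovered reads. Scripts were tested on simulated data.

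The comparison and the rules for lists were set with earlier results of these data known. Named genes were the 8 largest peak and 8 largest dip genes without overlap and with 5 FPKM or more, the 3 largest not beyond both ends and the 3 most abundant in each direction, and the 2 largest called steps from stage 3 to 4. Only the first 2 of each are printed, since bare IDs say little. Lists of hormone, cell wall, cell death and marker genes by product name could not be applied to bare IDs.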

Additional observations from a re-analysis of the deposited data

Results flagged for a closer look

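For 5 of the genes given above the 2 middle stages differed from each other. The test was of the difference itself (stage 4 minus stage 3, log2, limma adjusted over all genes). All but Spipo22G0026000 were among the genes named for a called step between these stages, so those calls were fixed by the choice. Those calls were also lost when single libraries of stages 3 or 4 were left out, as given above. The differences were 2.42 for Spipo9G0028100 (adjusted p = 0.0122), 1.49 for Spipo3G0017900 (adjusted p = 0.0215), 1.70 for Spipo22G0026000 (adjusted p = 0.0133), -1.17 for Spipo3G0103900 (adjusted p = 0.0143) and -1.10 for Spipo1G0085300 (adjusted p = 0.0155). Their mean over stages 3 and 4 therefore joins 2 unlike levels.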

How the results depend on the processing

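Scaling decided the balance of directions. Median ratio scaling gave 1950 higher and 2830 lower genes, 188 peak and 194 dip genes, and quantile normalization 168 dip genes. Weighting the ends 5 to 3 gave 3685 genes (2611 higher, 1074 lower), the same with median ratio scaling, chosen after seeing the data, 2956 (1250 higher), and stage 5 in the middle 1335 (892 and 443), with 126 peak and 51 dip genes. A 2-fold minimum, by construction fewer, left 402 genes (68 and 334), 562 against stage 2, 3616 against stage 6, 7 peak and 2 dip genes. Library weights gave 158 dip genes and, among their own peak genes, 123 called steps from stage 3 to 4 in place of 12; the cause was not tested. Leaving out 1 library gave 4184 to 5855 genes (2983 to 4231 higher, 1201 to 1738 lower), 3472 to 5700 against stage 2, 8452 to 10818 against stage 6, 200 to 460 peak and 52 to 147 dip genes. The fit with a replicate block gave 6009 genes, 384 of them peak genes. Between same-numbered libraries, deviations from stage means correlated by -0.245 to 0.375 (5 of 15 pairs above 0.1), and 6 of 11 libraries were closest to their own number, so the numbers were not taken as pairs. The voom model on recovered reads called 5686 genes. Called steps from stage 3 to 4 were also counted among the peak genes of each setting. They were 6 with a pseudocount of 0.01, 7 with median ratio scaling, 20 with 13 libraries or voom and 23 with the block. Other alternatives for called, peak and dip genes (pseudocounts, filters, no trend, 13 libraries, equal library weights) stayed within 1.5 times. Of 493 alternative values of the 15 named genes, 456 kept sign and call, 36 lost the call and 1 reversed (Spipo23G0000500, 0.021 with quantile normalization). The 15 include Spipo0G0190900 and Spipo9G0025900, which passed the limit for testing only through the stage 6 libraries. Calls kept by these genes are therefore no support. The genes have no value when either stage 6 library is left out. With 2 libraries at stage 6, and 1 when either is left out, the spread there is taken from the other stages.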
